A study of Homo sapiens with 19 samples.

Results

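The genes of the autophagy core machinery were followed in 2 human colorectal carcinoma cell lines, HCT116 and WiDr, treated with inhibitors of protein arginine methyltransferases (PRMTs), enzymes that methylate arginine in histones, splicing factors and other proteins. They are 36 genes chosen by symbol, and all 36 had a row in each of the 3 gene tables, which hold 60612 (HCT116), 63086 (WiDr short reads) and 82890 (WiDr long reads) rows. They comprise the ULK kinase complex (5 genes), the class III PI3-kinase complex (5), phosphoinositide effectors with lipid transfer proteins and a scramblase (7), the conjugation enzymes (6), the ATG4 proteases (4), ATG8 proteins (4), cargo receptors (3) and the transcription factors TFEB and TFE3.

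HCT116 cells received 10 µM GSK025 (GSK3235025, an inhibitor of PRMT5), 5 µM GSK715 (GSK3368715, labelled a PRMT1 inhibitor and known to inhibit the type I PRMTs, of which PRMT1 is the main member) or the vehicle DMSO for 96 h, with 3 libraries each. WiDr cells received 5 µM GSK715 or DMSO for 96 h, with 3 short-read libraries each and 2 Oxford Nanopore (ONT) full-length cDNA libraries each. No source says that the libraries of a group came from separate cultures, so each p-value rests on a spread between libraries that may be technical. The labels name no genetic change in either line.

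Autophagy encloses cytoplasm in a double membrane and delivers it to the lysosome. The ULK kinase complex starts the process, the class III PI3-kinase marks the growing membrane with PI3P, ATG2 and VPS13 proteins supply lipid, and a ubiquitin-like conjugation system attaches ATG8 proteins such as LC3 to the membrane, where receptors such as SQSTM1 bring cargo. TFEB and TFE3 switch on lysosome and autophagy genes when nutrient signalling through mTORC1 is low. Transcript levels are reported here; none of the values measures autophagic flux or protein.

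Library totals were 64.6 to 66.9 M counts (M, mega) in HCT116, 59.6 to 82.4 M in WiDr short reads and 1.45 to 1.67 M in ONT. Of 9 epithelial markers, 6 to 9 reached 1 CPM (counts per mega-count of the library) in every group. VIL1 and CEACAM5 stayed under 1 CPM in HCT116, KRT20 in HCT116 with GSK715, and CDX2 in WiDr with DMSO and in both ONT groups. Of 9 markers of other cell types (immune, endothelial and stromal), 2 to 6 reached 1 CPM, with COL1A1 and CD68 among them in every group and PTPRC at 0 in the 3 HCT116 groups. Their summed level was 52.6 CPM with GSK025, 119.7 CPM with GSK715 and 70.7 CPM with DMSO in HCT116, and 40.6 CPM with GSK715 against 21.8 CPM with DMSO in WiDr short reads; their part in the results below was not tested.

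Levels are CPM scaled by trimmed mean of M values (TMM), and changes are log2 fold changes with an approximate standard error (SE). A gene is said to rise or fall where edgeR's quasi-likelihood test gave an adjusted p (Benjamini-Hochberg over all genes tested) under 0.05. In a bulk library, fewer cells expressing a gene and less RNA per cell cannot be told apart. Counts are uncertain for 9 of the genes, which share at least 10% of their exonic bases with other annotated genes while no strand is stated: ATG101, BECN1, WIPI1, WDR45, ATG9A, ATG7, ATG4D, GABARAP (55.7%) and SQSTM1 (22.0%).

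With GSK025 in HCT116, 13 of the 36 genes rose and 11 fell, where 22% of the 19751 genes tested rose and 22.1% fell. With GSK715 in HCT116, 18 rose and 9 fell, where 22.1% of all genes rose and 24.2% fell. Scaled by library totals instead of TMM, GSK025 gave 9 that rose and 13 that fell, and GSK715 gave 15 and 12. Over all genes that scaling gave 3650 that rose and 4900 that fell with GSK025, beside 4338 and 4370 with TMM, and 2994 and 6343 with GSK715, beside 4372 and 4785 with TMM. In WiDr short reads GSK715 raised 14 and lowered 16, where 33.6% of 19340 genes rose and 32.2% fell. With library totals 17 rose and 13 fell (over all genes 7495 and 5300, beside 6502 and 6225 with TMM). All 36 genes averaged at least 5 CPM in HCT116, as did 11184 of the 19751 genes tested, so the background holds many weaker genes. The median log2 fold change over the 36 was -0.04 with GSK025 and 0.17 with GSK715 in HCT116 and 0.01 in WiDr, beside -0.02, -0.05 and 0.05 over all genes. The core genes thus moved in both directions within each comparison.

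**Figure D1:**
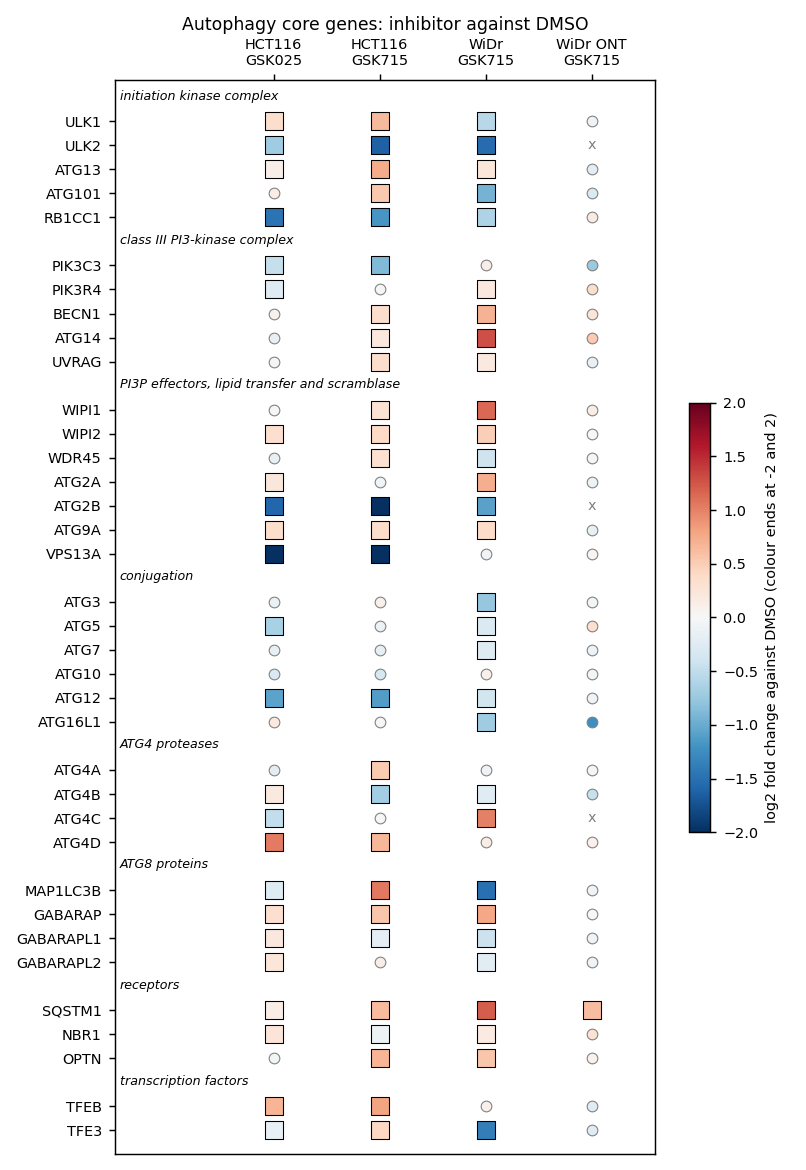
Log2 fold change against DMSO of the 36 genes (rows, by role) in the 4 comparisons (columns); large squares passed the test, small circles did not, and x marks a gene not tested in ONT. In HCT116, VPS13A with both inhibitors and ATG2B with GSK715 have the deepest blue. MAP1LC3B changes colour between the HCT116 GSK715 and WiDr columns.

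The 2 HCT116 comparisons share their DMSO libraries, so the values of each comparison are given side by side below. ATG10, which joins ATG12 to ATG5, passed in none of the 3 short-read comparisons.

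In the ULK complex, ULK1, the kinase that starts autophagy, rose in HCT116 with each inhibitor and fell in WiDr. ULK1 measured 37.4, 43.7 and 40.5 CPM with GSK025, 50.3, 51.0 and 48.1 CPM with GSK715, and 31.6, 30.9 and 32.9 CPM with DMSO in HCT116. In WiDr it measured 110, 112 and 107 CPM with GSK715 and 163, 160 and 160 CPM with DMSO. No treated library overlapped the DMSO libraries of its line, and the log2 fold changes were 0.35 ± 0.07 (SE, adjusted p = 0.000658) with GSK025, 0.65 ± 0.07 (adjusted p = 3.1e-06) with GSK715 in HCT116 and -0.55 ± 0.03 (adjusted p = 1.1e-07) in WiDr. Its partner kinase ULK2 fell in all 3, by 0.71 and 1.64 on the log2 scale with GSK025 and GSK715 in HCT116 and by 1.54 in WiDr (SE 0.11, 0.11 and 0.30). ULK2 was at 11.0, 13.4 and 11.2 CPM with GSK025, 5.92, 6.05 and 6.72 CPM with GSK715 and 18.8, 19.0 and 20.4 CPM with DMSO in HCT116, and in WiDr at 0.660, 0.472 and 0.639 CPM with GSK715 and 1.61, 2.22 and 1.33 CPM with DMSO. No ULK2 library overlapped between inhibitor and DMSO in either line, although WiDr held little of the transcript.

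The scaffold of the complex split by subunit. RB1CC1 (FIP200), the large scaffold, fell in HCT116 to 19.3, 15.9 and 17.3 CPM with GSK025 and 17.8, 25.1 and 21.9 CPM with GSK715, against 51.4, 44.3 and 50.9 CPM with DMSO. In WiDr it fell to 79.1, 73.8 and 81.3 CPM with GSK715, against 117, 110 and 132 CPM with DMSO. The log2 fold changes were -1.48 ± 0.12, -1.18 ± 0.12 and -0.62 ± 0.06 (adjusted p = 4.73e-07, 2.58e-06 and 1.46e-05), with no overlap in any of the 3. ATG13, the regulatory subunit, moved the other way. It measured 83.4, 80.5 and 81.4 CPM with GSK025, 131, 121 and 122 CPM with GSK715 and 72.4, 73.1 and 77.1 CPM with DMSO in HCT116 (0.14 ± 0.05 and 0.75 ± 0.05, adjusted p = 0.0288 and 5e-08). In WiDr it measured 157, 156 and 159 CPM with GSK715 and 133, 133 and 134 CPM with DMSO (0.24 ± 0.03, adjusted p = 3.35e-05). The small ATG13 response to GSK025 was lost when DMSO replicate 1, DMSO replicate 2 or GSK025 replicate 1 was left out (adjusted p = 0.102, 0.0843 and 0.105), and with library totals (adjusted p = 0.228). ATG101, which stabilises ATG13, rose with GSK715 in HCT116 (0.54 ± 0.06) and fell in WiDr (-0.94 ± 0.05), and with GSK025 its log2 fold change was 0.14 with an adjusted p of 0.0624.

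In the class III PI3-kinase complex, PIK3C3 (VPS34), the catalytic subunit, fell in HCT116. It measured 22.7, 22.3 and 26.5 CPM with GSK025, 15.7, 17.3 and 21.1 CPM with GSK715 and 32.5, 34.5 and 32.7 CPM with DMSO (-0.48 ± 0.10 and -0.88 ± 0.11, adjusted p = 0.00214 and 1.46e-05). No PIK3C3 library of either inhibitor reached the DMSO range, and in WiDr its log2 fold change was 0.13 with an adjusted p of 0.0645. ATG14, which directs the complex to autophagy, rose most in WiDr, to 24.0, 23.3 and 25.4 CPM with GSK715, against 8.78, 9.74 and 11.1 CPM with DMSO (1.29 ± 0.09, adjusted p = 9.42e-07). In HCT116 ATG14 measured 34.4, 30.8 and 35.4 CPM with GSK715 and 30.6, 27.9 and 28.03 CPM with DMSO, a rise of 0.22 ± 0.08 (adjusted p = 0.0359). The ATG14 groups did not overlap in WiDr, and in HCT116 the lowest GSK715 library stood just above the highest DMSO library.

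BECN1 (Beclin 1), the scaffold of this complex, rose with GSK715 in both lines. It measured 95.1, 94.3 and 92.7 CPM with GSK715 against 75.5, 71.5 and 74.1 CPM with DMSO in HCT116 (0.35 ± 0.05), and 102, 103 and 99.3 CPM with GSK715 against 63.7, 64.0 and 60.1 CPM with DMSO in WiDr (0.70 ± 0.04). With GSK025, BECN1 had a log2 fold change of 0.07 (adjusted p = 0.271). UVRAG, an alternative partner of Beclin 1, rose with GSK715 by 0.34 ± 0.08 in HCT116 and 0.19 ± 0.07 in WiDr. PIK3R4 (VPS15), the regulatory subunit, fell with GSK025 (-0.26 ± 0.06) and rose with GSK715 in WiDr (0.21 ± 0.06).

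Among the lipid transfer proteins, VPS13A, a bridge-like lipid transporter, had the largest fall with GSK025 of the 36 genes. It measured 9.75, 7.83 and 5.91 CPM with GSK025, 8.48, 12.03 and 9.95 CPM with GSK715 and 52.3, 46.2 and 49.9 CPM with DMSO in HCT116. The inhibitor libraries stood far below DMSO without overlap (-2.66 ± 0.17 and -2.28 ± 0.16, adjusted p = 6.82e-08 and 1.38e-07). In WiDr, VPS13A measured 68.6, 76.7 and 77.6 CPM with GSK715 and 78.7, 73.8 and 81.5 CPM with DMSO, and these ranges overlapped (-0.07 ± 0.05, adjusted p = 0.277). The gene lies at chr9:77177353-77421541 (plus strand, GRCh38, GENCODE 29) with 20196 exonic bases, the most of the 36.

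ATG2B, which channels lipid from the endoplasmic reticulum to the growing membrane, fell in all 3 short-read comparisons and had the largest fall of the 36 genes with GSK715 in HCT116. In HCT116 it measured 3.96, 3.09 and 3.63 CPM with GSK025, 1.30, 0.726 and 1.46 CPM with GSK715 and 10.6, 10.3 and 11.2 CPM with DMSO. In WiDr it measured 9.09, 7.92 and 7.79 CPM with GSK715 and 20.02, 15.9 and 16.9 CPM with DMSO. No ATG2B group overlapped its DMSO group, and the log2 fold changes were -1.59 ± 0.22, -3.20 ± 0.24 and -1.09 ± 0.11 (adjusted p = 5.84e-05, 2.15e-07 and 1.2e-05). Its paralog ATG2A took another course: 0.22 ± 0.08 with GSK025 (adjusted p = 0.0361), -0.06 with GSK715 in HCT116 (adjusted p = 0.557) and 0.73 ± 0.04 in WiDr (adjusted p = 2.44e-07).

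The scramblase and the PI3P effectors mostly rose. ATG9A, the only multispanning membrane protein of the set, measured 80.4, 79.8 and 71.4 CPM with GSK025, 83.2, 75.0 and 74.8 CPM with GSK715 and 59.1, 62.6 and 59.2 CPM with DMSO in HCT116, and 93.3, 106 and 91.3 CPM with GSK715 and 76.1, 77.5 and 70.3 CPM with DMSO in WiDr. Its log2 fold change was 0.36, 0.37 and, in WiDr, 0.38 (SE 0.06 in each). WIPI2, which recruits ATG16L1 to PI3P, measured 90.5, 91.9 and 100.8 CPM with GSK025, 98.0, 96.4 and 102 CPM with GSK715 and 73.1, 77.8 and 73.7 CPM with DMSO in HCT116, and 119, 124 and 120 CPM with GSK715 and 86.3, 87.0 and 85.2 CPM with DMSO in WiDr. ATG9A and WIPI2 showed no overlap in any of the 3 comparisons, and WIPI2 rose by 0.33, 0.40 and 0.49 on the log2 scale. WIPI1, a related PI3P-binding protein, rose in WiDr to 26.2, 28.3 and 30.1 CPM with GSK715, against 12.2, 11.9 and 14.0 CPM with DMSO (1.15 ± 0.09, adjusted p = 1.08e-06). In HCT116 WIPI1 rose by 0.29 ± 0.05 with GSK715 and had a log2 fold change of -0.02 with GSK025 (adjusted p = 0.769). WDR45 (WIPI4) rose with GSK715 in HCT116 (0.32 ± 0.11) and fell in WiDr (-0.42 ± 0.06).

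In the conjugation system, no gene rose in a comparison with DMSO in short reads under edgeR. The members that passed fell: 2 of 6 with GSK025 (33.3%), 1 of 6 with GSK715 in HCT116 (16.7%) and 5 of 6 in WiDr (83.3%). Over all genes 22% rose and 22.1% fell with GSK025, 22.1% and 24.2% with GSK715 in HCT116, and 33.6% and 32.2% in WiDr. The share that fell with GSK715 in HCT116 was thus under that of all genes. At an unadjusted p under 0.05, 1 gene was higher with GSK025 (ATG16L1) and none with GSK715 in either line. Over all genes, 9822 (GSK025) and 10210 (GSK715) of 19751 in HCT116 and 13271 of 19340 in WiDr were under that cut, in either direction. DESeq2 called 1 gene of the conjugation system higher with GSK025 and none with GSK715 in either line. ATG12, the ubiquitin-like partner of ATG5, carried the largest change in HCT116. It measured 266, 271 and 287 CPM with GSK025, 259, 270 and 271 CPM with GSK715 and 581, 574 and 584 CPM with DMSO, log2 fold changes of -1.08 ± 0.04 and -1.12 ± 0.04 (adjusted p = 1.6e-09 and 3.26e-10). The 6 inhibitor libraries stood at 287 CPM or lower and the 3 DMSO libraries at 574 CPM or higher. In WiDr, ATG12 fell to 48.4, 51.5 and 52.9 CPM with GSK715, against 66.6, 66.5 and 66.9 CPM with DMSO (-0.39 ± 0.04).

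ATG5 fell with GSK025 (-0.65 ± 0.07, adjusted p = 5.48e-06) and in WiDr (-0.28 ± 0.05, adjusted p = 0.000965), and had -0.10 with GSK715 in HCT116 (adjusted p = 0.282). ATG3, the E2-like enzyme that attaches LC3 to lipid, fell in WiDr to 48.9, 49.6 and 46.4 CPM with GSK715, against 81.9, 81.5 and 85.0 CPM with DMSO (-0.78 ± 0.04, adjusted p = 4.43e-08), with no overlap. ATG16L1, which places the conjugation complex, fell in WiDr by 0.72 ± 0.07, and the E1-like enzyme ATG7 by 0.26 ± 0.08. ATG7 in HCT116 measured 21.5 to 22.0 CPM with GSK025, 21.5 to 21.8 CPM with GSK715, and 32.3, 21.2 and 19.6 CPM with DMSO, where 1 library stood above the rest.

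ATG14 and ATG3 are the 2 genes whose promoter window in the RefSeq table (GRCh38.p14) held the E-box CACGTG, the core of the motif that TFEB and TFE3 bind, so their starts are shown for the core's position. Capitals mark CACGTG, and each window runs from 150 bases before the transcription start to 20 bases after it, on the minus strand, at chr14:55411811-55411980 for ATG14 and chr3:112561943-112562112 for ATG3.
ATG14: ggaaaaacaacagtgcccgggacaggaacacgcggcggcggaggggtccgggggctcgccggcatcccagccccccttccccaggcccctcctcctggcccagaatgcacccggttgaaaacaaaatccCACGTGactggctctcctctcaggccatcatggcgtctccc
ATG3: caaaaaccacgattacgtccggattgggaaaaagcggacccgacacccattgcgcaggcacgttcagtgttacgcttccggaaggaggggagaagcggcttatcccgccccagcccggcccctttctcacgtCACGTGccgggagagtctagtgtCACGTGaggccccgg
The second core in ATG3 also reads TCACGTGA. Both genes hold the core within a short distance of the start, and in WiDr ATG14 rose and ATG3 fell.

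Windows of 250 bases before to 50 after the start were on hand for 33 of the 36 genes (42 windows), and not for RB1CC1, UVRAG and ATG4D. CACGTG, searched on both strands, was in 2 of the 42 windows (4.76%) and in 7.26% of all 35116 windows in the table. TCACGTGA, which contains CACGTG, was in 1 of the 42 (2.38%) and in 0.98% of all windows, the palindrome of CACGTG flanked by GT and AC in 0 of the 42 and 0.353% of all, and TTGCATCA, a composite element of the ATF4 type, in 0 of the 42 and 0.866% of all. For comparison, CACGTG was in 4 of 38 windows (10.5%) of the further autophagy genes described below. In the lysosome genes, also described below, it was in 9 of 22 windows (40.9%). The lysosome list holds 33 genes, so not all of them had a window.

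The ATG4 proteases, which trim ATG8 proteins, moved apart. ATG4D rose in HCT116 to 51.0, 53.0 and 46.0 CPM with GSK025 and 37.8, 40.3 and 37.5 CPM with GSK715, against 23.3, 24.6 and 25.1 CPM with DMSO. These groups did not overlap (1.04 ± 0.07 and 0.66 ± 0.07, adjusted p = 9.19e-08 and 3.24e-06), and in WiDr the log2 fold change of ATG4D was 0.15 (adjusted p = 0.0981). ATG4B, the most active of the 4 proteases, measured 67.5, 74.5 and 72.2 CPM with GSK025, 40.6, 39.4 and 35.5 CPM with GSK715 and 59.5, 66.1 and 62.2 CPM with DMSO in HCT116. It fell with GSK715 there (-0.70 ± 0.07, adjusted p = 1.42e-06) and in WiDr (-0.24 ± 0.05, adjusted p = 0.00159), where it measured 55.9, 59.3 and 53.9 CPM with GSK715 and 70.0, 66.6 and 63.4 CPM with DMSO. These groups did not overlap.

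The rise of ATG4B with GSK025 (0.19 ± 0.06, adjusted p = 0.029) was lost when any of 4 libraries was left out (adjusted p = 0.114 without DMSO replicate 1, 0.0775 without DMSO replicate 3, 0.111 without GSK025 replicate 2 and 0.0694 without GSK025 replicate 3), with library totals (adjusted p = 0.131) and with no count filter (adjusted p = 0.0574), and its fall in WiDr did not pass with library totals (adjusted p = 0.0614). ATG4C fell with GSK025 to 12.7, 12.4 and 14.5 CPM, against 20.3, 16.5 and 18.9 CPM with DMSO (-0.49 ± 0.11), and rose in WiDr to 5.72, 6.99 and 6.79 CPM with GSK715, against 3.42, 2.84 and 3.45 CPM with DMSO (1.01 ± 0.16). ATG4C was low in WiDr. ATG4A rose with GSK715 in HCT116 (0.52 ± 0.12, adjusted p = 0.00248); in WiDr its log2 fold change was -0.08 (adjusted p = 0.468).

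Among the ATG8 proteins, which coat the membrane and bind receptors, MAP1LC3B (LC3B, chr16:87383995-87404779, plus strand) changed most with GSK715, in opposite directions in HCT116 and WiDr. In HCT116 it measured 182, 190 and 188 CPM with GSK025, 485, 479 and 449 CPM with GSK715 and 222, 232 and 223 CPM with DMSO. In WiDr it measured 71.9, 68.5 and 67.8 CPM with GSK715 and 190, 201 and 202 CPM with DMSO. LC3B thus rose about 2.09-fold with GSK715 in HCT116 (1.06 ± 0.04, adjusted p = 7.78e-10), fell 1.21-fold with GSK025 (-0.28 ± 0.04, adjusted p = 7.99e-05) and fell 2.85-fold with GSK715 in WiDr (-1.51 ± 0.04, adjusted p = 4.6e-10), with no overlap in any of the 3. MAP1LC3B2 and GABARAPL3 are near-identical copies of MAP1LC3B and GABARAPL1, so how reads were split among them is uncertain.

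GABARAP rose in each short-read comparison, although 55.7% of its exonic bases are shared with other annotated genes. It measured 219, 236 and 239 CPM with GSK025, 282, 268 and 254 CPM with GSK715 and 181, 182 and 186 CPM with DMSO in HCT116, and 101.1, 98.8 and 101.8 CPM with GSK715 and 59.8, 58.4 and 58.8 CPM with DMSO in WiDr. The log2 fold changes were 0.34, 0.55 and 0.77, without overlap. GABARAPL1 rose with GSK025 (125, 135 and 150 CPM, 0.22 ± 0.06) and fell with GSK715 in HCT116 (103, 104 and 99.1 CPM, -0.20 ± 0.06), against 113, 121 and 119 CPM with DMSO, and fell in WiDr by 0.43 ± 0.04, to 69.9, 72.6 and 67.1 CPM with GSK715, against 95.4, 97.6 and 89.4 CPM with DMSO. Its rise with GSK025 was lost with library totals (0.149, adjusted p = 0.055), and its fall with GSK715 in HCT116 was lost when DMSO replicate 2, DMSO replicate 3 or GSK715 replicate 3 was left out (adjusted p = 0.0606, 0.0531 and 0.059). GABARAPL2 rose with GSK025 (0.25 ± 0.05) and fell in WiDr (-0.22 ± 0.05).

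**Figure D2:**
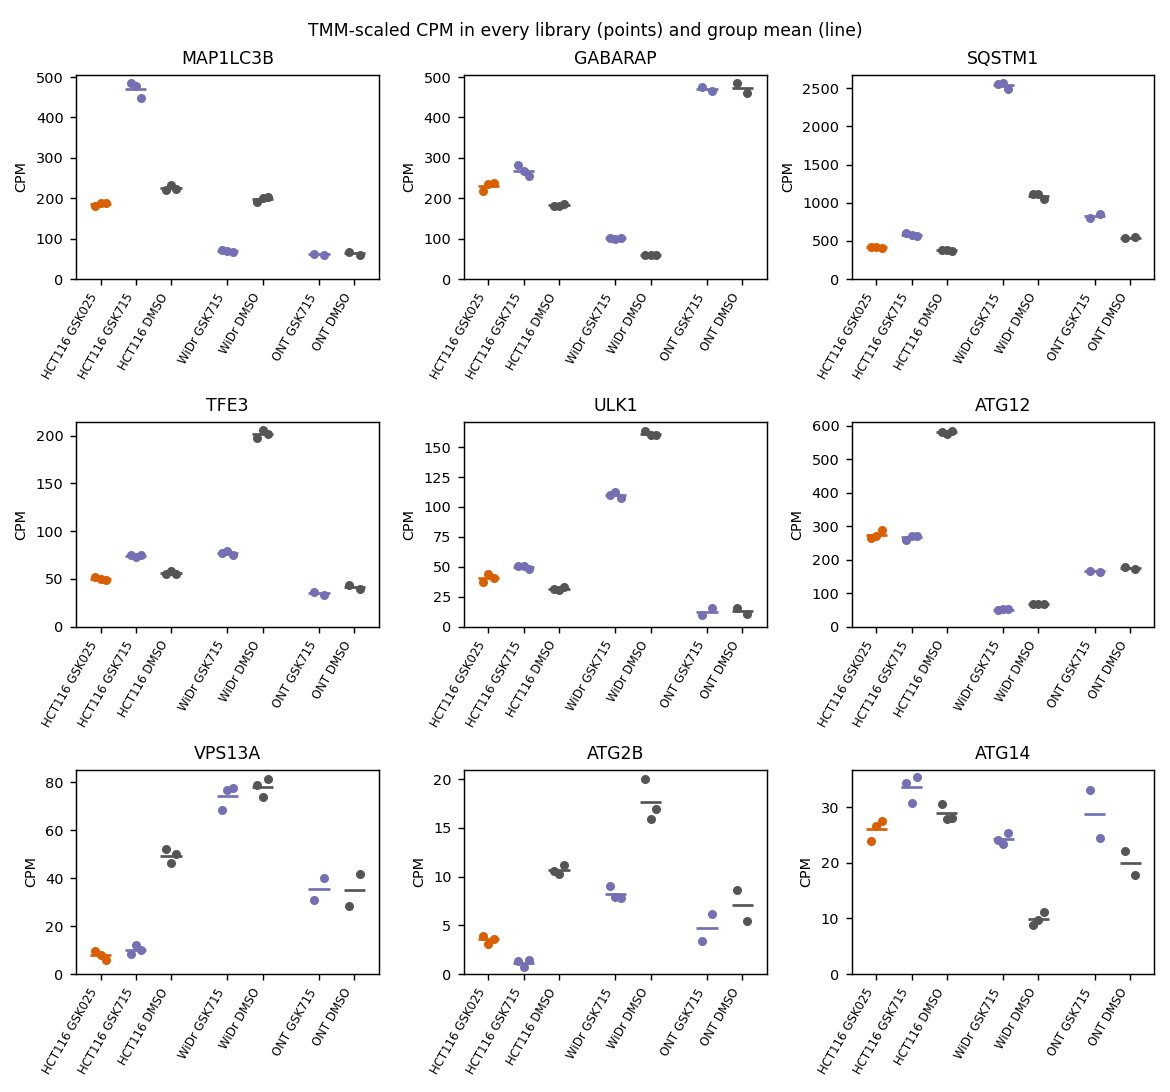
TMM-scaled CPM of 9 genes in every library (points, with the group mean as a line), for HCT116, WiDr short reads and WiDr ONT (each table scaled on its own). MAP1LC3B with GSK715 stands above DMSO in HCT116 and below it in WiDr short reads, and in ONT the groups overlap.

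SQSTM1 (p62, chr5:179806398-179838078, plus strand) is the receptor that binds ubiquitinated cargo, and it rose in all 3 short-read comparisons and in ONT. It measured 424, 423 and 406 CPM with GSK025, 603, 575 and 569 CPM with GSK715 and 375, 377 and 373 CPM with DMSO in HCT116. In WiDr it measured 2552, 2568 and 2484 CPM with GSK715 and 1108, 1116 and 1051 CPM with DMSO, and in ONT 802 and 852 CPM with GSK715 and 534 and 549 CPM with DMSO. No group overlapped its DMSO group, and the log2 fold changes were 0.15 ± 0.04 (adjusted p = 0.00264), 0.64 ± 0.04 (adjusted p = 1.67e-08), 1.22 ± 0.03 (adjusted p = 1.75e-10) and 0.61 ± 0.09 (adjusted p = 1.97e-06).

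OPTN, a receptor in the removal of mitochondria and bacteria, rose with GSK715 in HCT116 (73.7, 77.4 and 76.7 CPM against 49.3, 45.1 and 47.4 CPM with DMSO, 0.69 ± 0.06) and in WiDr (0.56 ± 0.03), and with GSK025 its log2 fold change was -0.05 (adjusted p = 0.522). NBR1, a receptor that works with SQSTM1, measured 207, 199 and 203 CPM with GSK025, 154, 164 and 156 CPM with GSK715 and 171, 169 and 168 CPM with DMSO in HCT116. It rose with GSK025 (0.26 ± 0.04) and in WiDr, where it measured 213, 204 and 215 CPM with GSK715 and 185, 184 and 186 CPM with DMSO (0.19 ± 0.03). Its fall with GSK715 in HCT116 (-0.10 ± 0.04, adjusted p = 0.0472) was lost in 10 of 12 alternatives. It did not pass with DESeq2 (adjusted p = 0.0894), RLE size factors (0.116), no count filter (0.058), a replicate block (0.0767) or only the groups compared (0.113). Nor did it pass without any of DMSO replicates 1, 2 and 3 or GSK715 replicates 1 and 3 (adjusted p = 0.0955 to 0.147).

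TFEB and TFE3 were at unequal levels and moved unlike each other. TFEB rose in HCT116 to 10.7, 9.37 and 9.22 CPM with GSK025 and 11.0, 10.6 and 10.2 CPM with GSK715, against 6.602, 6.24 and 5.37 CPM with DMSO (0.69 ± 0.12 and 0.81 ± 0.12, adjusted p = 0.000495 and 0.000126), and had a log2 fold change of 0.10 in WiDr (adjusted p = 0.29). TFE3 (chrX:49028726-49043486, minus strand) measured 51.9, 49.4 and 48.7 CPM with GSK025, 75.0, 73.4 and 74.7 CPM with GSK715 and 55.5, 57.9 and 54.8 CPM with DMSO in HCT116. In WiDr TFE3 fell to 76.9, 78.7 and 75.2 CPM with GSK715, against 198, 205 and 201 CPM with DMSO (-1.39 ± 0.03, adjusted p = 2.82e-10). It rose with GSK715 in HCT116 (0.41 ± 0.05, adjusted p = 1.17e-05) and fell with GSK025 (-0.17 ± 0.05, adjusted p = 0.0126), the last of which was lost when DMSO replicate 2 or GSK025 replicate 2 was left out (adjusted p = 0.0553 and 0.0506).

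The 2 inhibitors were compared directly in HCT116, where they were given at different doses (5 µM GSK715 and 10 µM GSK025) and both comparisons above share the DMSO libraries. GSK715 was higher than GSK025 in 18 genes and lower in 8, where 21.8% of all genes were higher and 22.5% lower. With library totals 18 were higher and 11 lower (3474 and 5406 over all genes, beside 4302 and 4444 with TMM). MAP1LC3B was 2.53-fold higher with GSK715 than with GSK025 (1.34 ± 0.04, adjusted p = 1.14e-10), with OPTN (0.74 ± 0.06), ATG4A (0.73 ± 0.12) and ATG13 (0.61 ± 0.05) next. ATG2B (-1.61 ± 0.23), ULK2 (-0.93 ± 0.11) and ATG4B (-0.89 ± 0.07) were lower with GSK715. VPS13A, ATG12, WIPI2, ATG9A and TFEB did not pass, with log2 differences of 0.37, -0.04, 0.06, 0.01 and 0.12 (SE 0.16, 0.04, 0.05, 0.06 and 0.12).

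The response to GSK715 was then compared between lines by the interaction of line and treatment, over 21791 genes. It differed in 29 of the 36 genes: the WiDr response was higher in 14 and lower in 15, where 23.2% of all genes were higher and 23.5% lower. With library totals instead of TMM, 19 were higher and 9 lower, with 7321 higher and 3203 lower over all genes, beside 5058 and 5129 with TMM. The median over all genes was then 0.47, beside 0.12 with TMM. MAP1LC3B differed most, with a WiDr minus HCT116 difference of -2.64 ± 0.06 (adjusted p = 9.78e-13), and TFE3 (-1.87 ± 0.05), ATG101 (-1.56 ± 0.08) and ULK1 (-1.27 ± 0.05) followed. VPS13A (2.14 ± 0.14) and ATG2B (2.04 ± 0.28), which fell far in HCT116, had the largest positive differences. ATG10, ATG7, ATG9A, PIK3R4, ULK2, UVRAG and WIPI2 did not pass the interaction. With GSK715, 5 genes rose in HCT116 and fell in WiDr (ATG101, MAP1LC3B, TFE3, ULK1, WDR45), 10 rose in both and 6 fell in both. NBR1 fell in HCT116 and rose in WiDr, but its fall was lost in 10 of 12 alternatives. Of 16313 genes tested in both lines, 8.96% rose in HCT116 and fell in WiDr, 11.2% rose in both, 14.3% fell in both and 5.69% fell in HCT116 and rose in WiDr.

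**Figure D3:**
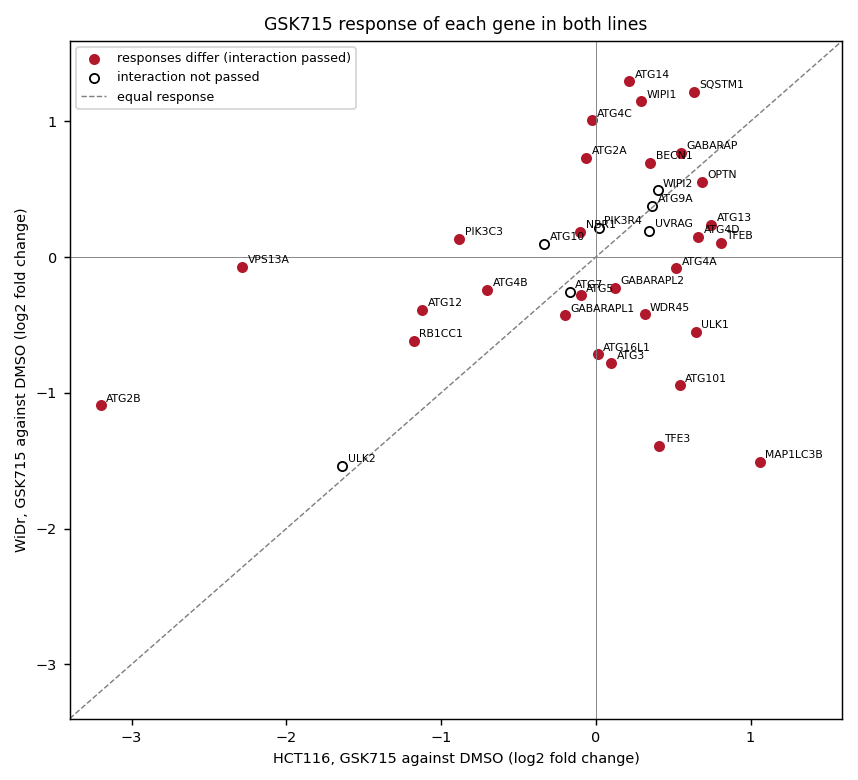
Log2 fold change with GSK715 against DMSO in WiDr short reads (y axis) against HCT116 (x axis), 1 point a gene; filled points passed the interaction, open ones did not, and the dashed line marks equal responses. MAP1LC3B, TFE3, ATG101, ULK1 and WDR45 lie at lower right, with a rise in HCT116 and a fall in WiDr.

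Long-read libraries of WiDr gave a second measure of the same comparison. In ONT, 33 of the 36 genes were tested and SQSTM1 alone passed, where 4.29% of 15877 genes rose and 4.51% fell (681 and 716 genes, and 592 and 991 with library totals). At an unadjusted p under 0.05, 3 of the 33 were higher and 3 lower, beside 3421 of the 15877 genes in either direction. DESeq2 also called SQSTM1 alone. MAP1LC3B measured 62.0 and 59.9 CPM with GSK715 and 67.1 and 60.3 CPM with DMSO (-0.07 ± 0.16), TFE3 36.4 and 33.4 CPM with GSK715 and 43.1 and 39.1 CPM with DMSO (-0.24 ± 0.20), and GABARAP 474 and 466 CPM with GSK715 and 485 and 461 CPM with DMSO (-0.01 ± 0.09). The MAP1LC3B and GABARAP groups overlapped, and those of TFE3 did not. ATG16L1 measured 3.37 and 7.49 CPM with GSK715 and 14.2 and 11.7 CPM with DMSO (-1.25 ± 0.43, adjusted p = 0.0605), and it passed with library totals (-1.30, adjusted p = 0.0445) and without GSK715 replicate 2 (-1.92, adjusted p = 0.0413). The left-out fit leaves 1 GSK715 library, which is assumed to vary like the others.

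The difference between read types was itself tested, in a comparison added after the values had been seen. It passed in 12 genes, with the ONT response higher in 7 and lower in 5, where 11.2% of 24055 genes were higher and 8.69% lower. MAP1LC3B (1.49 ± 0.12, adjusted p = 3.53e-06), TFE3 (1.20 ± 0.13) and ATG3 (0.78 ± 0.10) were higher in ONT than in short reads, and WIPI1 (-0.95 ± 0.20), GABARAP (-0.73 ± 0.06) and SQSTM1 (-0.56 ± 0.06) lower. SQSTM1 rose in both read types. With library totals 3 were higher and 10 lower (1802 and 3076 over all genes, beside 2697 and 2090 with TMM). Without ONT DMSO replicate 2, 4 were higher and 3 lower, and without ONT DMSO replicate 1, 3 were lower.

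**Figure D4:**
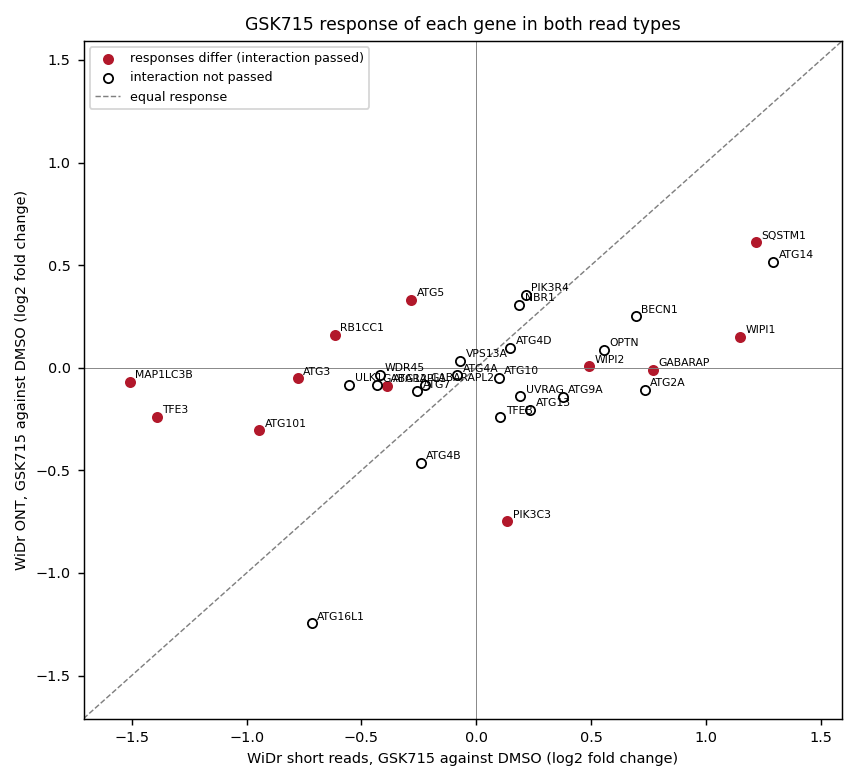
Log2 fold change with GSK715 against DMSO in WiDr ONT (y axis) against WiDr short reads (x axis) for 33 genes; filled points passed the read-type interaction and open ones did not. MAP1LC3B and TFE3 are far left with ONT values near 0, and SQSTM1 is far right and above 0.

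Exonic length, which the choice of genes did not use, was set beside the response. Of 8 genes with at least 8 kb of exons (ULK2, PIK3C3, WIPI2, ATG2B, VPS13A, ATG7, ATG12, NBR1), 5 fell with GSK025 and 6 with GSK715 in HCT116, and 4 fell in WiDr, while WIPI2 rose in all 3 comparisons. Among all genes with such exons and at least 5 CPM, 49.1% fell with GSK025 and 50.3% with GSK715 in HCT116 (n = 2496), and 51% in WiDr (n = 2434). ULK2 in WiDr was under 5 CPM, and the NBR1 fall with GSK715 in HCT116 is the one lost in most alternatives, as given above. Spearman's rho of exonic length with log2 fold change was -0.317 with GSK025 and -0.508 with GSK715 over the 36 genes in HCT116, and -0.161 in WiDr. Over all genes of at least 5 CPM it was -0.301, -0.293 and -0.0635, and in ONT -0.0575 over 33 genes and -0.00911 over all. Over the 33 genes of at least 5 CPM in WiDr it was -0.0398. These are descriptions across genes, which share their libraries and are not independent replicates.

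**Figure D5:**
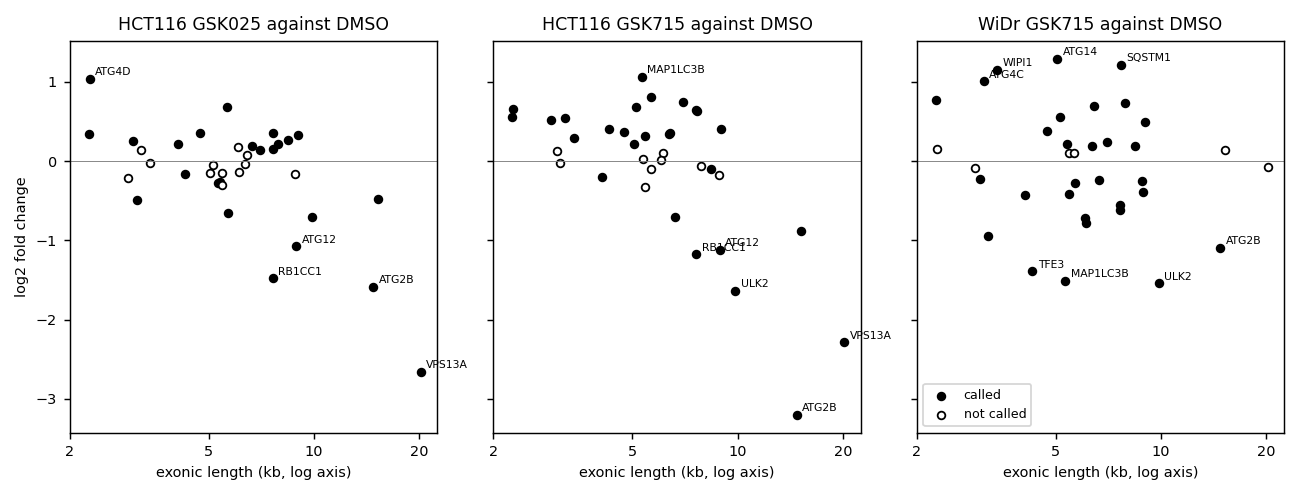
Log2 fold change (y axis) against the length of the union of annotated exons (x axis, kb, log scale) for the 36 genes in the 3 short-read comparisons; filled points passed the test. In both HCT116 panels ATG2B, VPS13A and ATG12 lie at lower right, and in WiDr VPS13A lies near 0.

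Levels between genes were compared per kb of the union of annotated exons, which need not equal the length of the transcript. With DMSO in HCT116, GABARAP was highest at 80.8 ± 1.26 CPM per kb (SD, n = 3), followed by ATG12 at 65.2 ± 0.573, SQSTM1 at 49.0 ± 0.25 and MAP1LC3B at 42.5 ± 1.10, and ATG2B was lowest at 0.725 ± 0.0336. WIPI1, ATG101 and NBR1 (21.2, 20.7 and 20.2 CPM per kb) did not differ beyond their spread. With DMSO in WiDr short reads, in a table scaled on its own, SQSTM1 was highest at 143 ± 4.67 CPM per kb. TFE3 followed at 47.1 ± 0.892, MAP1LC3B at 37.2 ± 1.25 and GABARAP at 26.05 ± 0.323, with ULK2 lowest at 0.175 ± 0.0461. The ONT libraries of WiDr with DMSO gave another order. There GABARAP averaged 209 CPM per kb, GABARAPL2 93.9, SQSTM1 70.8 and TFE3 9.59 (n = 2). The places of GABARAP and TFE3 in WiDr thus differed between read types, and the cause was not tested. GABARAP shares 55.7% of its exonic bases with other annotated genes.

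The counts of 3 neighbouring pathways follow. Lysosome genes rose in WiDr: 27 of 32 rose and 4 fell with GSK715, with a median log2 fold change of 0.76 beside 0.05 over all genes, and 13 of them rose at least 2-fold. Over all genes in WiDr 33.6% rose and 32.2% fell, as given above, so 84.4% and 12.5% of the list stand beside these shares, and 17.5% of all genes were at least 2-fold higher. In HCT116, 15 of 33 rose and 7 fell with GSK025, and 16 rose and 7 fell with GSK715 (medians 0.09 and 0.17), which is 45.5% and 48.5% that rose, beside 22% and 22.1% of all genes, and 21.2% that fell with each, beside 22.1% and 24.2%. NEU1, the lysosomal sialidase, averaged 129 CPM with GSK715 and 28.3 CPM with DMSO in WiDr (2.18 ± 0.03), while NPC1, which exports cholesterol, averaged 40.1 CPM with GSK715 and 85.6 CPM with DMSO (-1.09 ± 0.05). CTSD, the protease cathepsin D, averaged 206 CPM with GSK715 and 117 CPM with DMSO in HCT116 (0.81 ± 0.05), and LIPA, the acid lipase, fell there by 0.52 ± 0.04. Among the lysosome genes of at least 5 CPM that passed with GSK025 in HCT116, the largest rise was that of MCOLN1, a calcium channel of the lysosome (0.75 ± 0.16), and the largest fall that of the acid glucosidase GAA (-0.66 ± 0.06). In ONT, 3 of 32 lysosome genes passed, all higher and with ASAH1 (acid ceramidase, 0.74 ± 0.13) among them, DESeq2 called 1, and 4.29% of all genes were higher. The read-type interaction passed lower in 20 of 33 (60.6%, beside 8.69% of all genes).

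Of 40 further autophagy genes, 14 rose and 18 fell with GSK025 and 12 rose and 10 fell with GSK715 in HCT116, and 23 of 39 rose and 10 fell in WiDr. As shares, 35% rose and 45% fell with GSK025 (22% and 22.1% of all genes), 30% rose and 25% fell with GSK715 in HCT116 (22.1% and 24.2%), and 59% rose and 25.6% fell in WiDr (33.6% and 32.2%). VPS13C, a lipid transporter like VPS13A, averaged 7.99 CPM with GSK025, 7.66 CPM with GSK715 and 25.0 CPM with DMSO in HCT116 (-1.65 ± 0.13 and -1.71 ± 0.13). TEX264, a receptor for autophagy of the endoplasmic reticulum, rose with GSK025 (0.93 ± 0.07), and VAMP8, a SNARE of autophagosome fusion, rose with GSK715 (0.70 ± 0.09). CALCOCO2 (NDP52), a cargo receptor, fell in WiDr by 1.28 ± 0.03, and the PI3P-binding ZFYVE1 rose by 1.499 ± 0.11. In ONT, none of 36 passed with edgeR or DESeq2, where 4.29% of all genes rose and 4.51% fell with edgeR. At an unadjusted p under 0.05, 1 of these was higher and 0 lower, beside 3421 of 15877 genes in either direction.

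Of the nutrient signalling genes, 15 of 32 rose and 10 fell with GSK025, 15 rose and 8 fell with GSK715 in HCT116, and 13 of 30 rose and 11 fell in WiDr. As shares, 46.9% rose and 31.2% fell with GSK025 (22% and 22.1% of all genes), 46.9% rose and 25% fell with GSK715 in HCT116 (22.1% and 24.2%), and 43.3% rose and 36.7% fell in WiDr (33.6% and 32.2%). The share that fell with GSK715 was near that of all genes in both lines. SESN2, a sestrin that restrains mTORC1, averaged 68.5 CPM with GSK715 and 23.5 CPM with DMSO in HCT116 (1.54 ± 0.07), and 27.7 CPM with GSK715 and 203 CPM with DMSO in WiDr (-2.87 ± 0.05). Its relative SESN1 rose with GSK025 in HCT116 (1.02 ± 0.10) and with GSK715 in WiDr (1.37 ± 0.13). PRKAA2, a catalytic subunit of the energy sensor AMPK, fell in HCT116 by 2.13 ± 0.29 with GSK025 and 2.42 ± 0.30 with GSK715. In ONT, 2 of 28 passed (7.14%), both higher and with FLCN (1.38 ± 0.34) among them, where 4.29% of all genes were higher and 4.51% lower. DESeq2 called none of the 28.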

How the data were processed

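The study holds 19 RNA libraries from 2 cell lines. In both short-read tables the authors deposited whole-number counts for each gene, and the deposited ONT table holds estimated counts, of which 15.1% are not whole and were rounded. Per the submitters' processing notes, cutadapt, HISAT2, StringTie, minimap2, Salmon and DESeq2 were used on GRCh38. Versions, the step of each tool, strand and annotation release are not given in the sources used here. The WiDr columns headed NC name no treatment; they were assigned to DMSO because GSK715 is the other group there.

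Symbols, coordinates and exonic lengths came from a gene name table and GENCODE 29. Fits used R 4.3.3 and edgeR 4.0.16 (filterByExpr with minimum count 10 and minimum total 15, TMM, quasi-likelihood F-test, Benjamini-Hochberg over all genes, threshold 0.05), and were tested on simulated data. SE is the absolute log2 fold change over the root of F. All 9 HCT116 libraries share 1 fit. Interactions used the 60259 IDs the lines share and the 61975 the read types share. ONT IDs not from Ensembl (3991, with 8.49% to 9.81% of counts) stayed in the fit. Promoter windows were read from RefSeq (GRCh38.p14). Of the motifs, TCACGTGA and TTGCATCA were added after the data had been seen.

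The genes and lists were chosen with earlier results of these data known. Values per library are given for the called gene with the largest change in each direction of each role and comparison (mean at least 1 CPM) and for genes called in all 3 short-read comparisons. From the other lists, the rule takes the largest called change in each direction (mean at least 5 CPM), and the text prints these. Alternatives were size factors (RLE), library totals, no count filter, a block for the replicate number, DESeq2 1.42.0, only the groups compared, and each library left out. The number of libraries limits the precision. No pair of libraries in a group agreed within counting noise. Same-numbered libraries did not deviate together, so the main fits have no block. Protein sequences were not used here.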

Additional observations from a re-analysis of the deposited data

Results flagged for a closer look

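The results below are differences between responses that passed a test of the difference itself. No explanation was weighed, and values are log2 differences from edgeR's quasi-likelihood test with Benjamini-Hochberg adjustment.

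The GSK715 response in WiDr exceeded that in HCT116 for VPS13A (2.14), ATG2B (2.04), ATG14 (1.01), ATG4C (0.962), PIK3C3 (0.946), WIPI1 (0.785), ATG2A (0.725), ATG12 (0.662), SQSTM1 (0.51), RB1CC1 (0.49), ATG4B (0.391), BECN1 (0.273), NBR1 (0.216) and GABARAP (0.149). It was below that in HCT116 for MAP1LC3B (-2.64), TFE3 (-1.87), ATG101 (-1.56), ULK1 (-1.27), ATG3 (-0.947), WDR45 (-0.806), ATG16L1 (-0.798), TFEB (-0.773), ATG4A (-0.673), ATG4D (-0.585), ATG13 (-0.582), GABARAPL2 (-0.42), GABARAPL1 (-0.3), ATG5 (-0.256) and OPTN (-0.2). The ATG5 and OPTN differences each lost the call when any 1 of 8 libraries was left out, and that of GABARAP did so without the count filter and with the replicate block (adjusted p = 0.0642 and 0.0611). With library totals the calls of ATG4A, ATG4D and GABARAPL2 were lost (adjusted p = 0.104, 0.0686 and 0.432). That scaling also reversed the sign for ATG5, GABARAPL1 and OPTN, and the reversed OPTN difference passed (0.156, adjusted p = 0.0491). The 2 lines were counted in separate tables, so line and table cannot be told apart. For this difference the libraries of both lines were filtered and scaled together by TMM. Its values can therefore depart from the difference of the fold changes given for each line, which were scaled separately.

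In WiDr, the ONT response exceeded the short-read response for MAP1LC3B (1.49), TFE3 (1.2), RB1CC1 (0.829), ATG3 (0.777), ATG101 (0.687), ATG5 (0.666) and ATG12 (0.349). It was below the short-read response for WIPI1 (-0.948), PIK3C3 (-0.837), GABARAP (-0.728), SQSTM1 (-0.555) and WIPI2 (-0.433). Several of these calls were lost in single alternatives. Without ONT DMSO replicate 1 the calls of ATG101, PIK3C3, RB1CC1 and WIPI2 were lost (adjusted p = 0.17, 0.08, 0.0512 and 0.0536). Without ONT DMSO replicate 2 those of ATG101, PIK3C3, RB1CC1, WIPI2 and ATG5 were lost (0.0556, 0.169, 0.0816, 0.0857 and 0.0679). Without ONT GSK715 replicate 1 those of ATG101, PIK3C3 and RB1CC1 were lost (0.146, 0.109 and 0.112), and without ONT GSK715 replicate 2 those of ATG101, PIK3C3, WIPI2 and ATG5 (0.164, 0.146, 0.098 and 0.0754). PIK3C3 was also lost without WiDr short-read GSK715 replicate 2 (0.0502), and ATG101, RB1CC1, ATG5 and ATG12 with library totals (0.174, 0.0564, 0.0584 and 0.334). ATG101 was lost with the replicate block (0.064) and PIK3C3 with no count filter (0.061). This comparison was added after the values had been seen. The ONT libraries held 1.45 to 1.67 M counts and the short-read libraries 59.6 to 82.4 M, and the part of depth in these differences was not tested.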

How the results depend on the processing

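Over 101 values for single genes and 1371 settings, 71 settings ended a call and 3 reversed a sign, and 81 of the values lost no call. The 3 reversals came with library totals in the WiDr minus HCT116 difference, for ATG5 (0.0988), GABARAPL1 (0.0548) and OPTN (0.156). The reversed OPTN difference passed (adjusted p = 0.0491), and the cause of the reversals was not tested. With library totals the genes lower in that difference numbered 9, beside 15 with TMM (13 to 15 with 1 library left out). In the ONT minus short-read difference, library totals gave 3 higher and 10 lower, beside 7 and 5, and leaving out 1 library gave 4 to 7 higher and 3 to 7 lower. In ONT, 1397 genes passed over all, beside 274 with DESeq2, 251 with no count filter and 464 to 1058 with 1 library left out. Of the 36 genes, 0 were lower in ONT, beside 1 (ATG16L1) with library totals and 1 with the replicate block, and 0 to 1 with 1 library left out. Under the replicate block, the genes higher and lower with GSK715 in HCT116 numbered 17 and 8, beside 18 and 9. Deviations of same-numbered libraries correlated at -0.152 to 0.101, so the number was not taken as a pairing. With library totals the median of all genes was -0.21 with GSK715 in HCT116 and 0.18 in WiDr, beside -0.05 and 0.05. ONT had 1.45 to 1.67 M counts and 2 libraries a group, whose part in the number of calls was not tested, and ULK2, ATG2B and ATG4C did not pass its count filter.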
